A study of Schizosaccharomyces pombe with 4 samples.

Results

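Histone genes were followed here as places where newly made histone H3 is found in chromatin, in the fission yeast Schizosaccharomyces pombe. The genes are hht2 (SPBC8D2.04), which encodes histone H3, its divergent neighbour hhf2 (SPBC8D2.03c), which encodes histone H4, and pht1 (SPBC11B10.10c), which encodes the variant H2A.Z. What was read for them are all tiling probes inside the genes or within 500 bp of them, 98 of the 43993 probes on the array that are not controls. The hhf2 and hht2 locus holds 53 of them and pht1 the other 45. The genes themselves hold 14 probes for hht2, 16 for hhf2 and 25 for pht1, of which 24 were kept after 1 spot marked as an outlier was left out.

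The samples were clr3D cells, IRD2 cells (also written IR-D2 in the labels), IRD2 clr3D double mutants and wild-type (WT) cells, with 1 array each. In fission yeast notation clr3D is a deletion of clr3, which encodes a histone deacetylase of heterochromatin. What IRD2 stands for is not said in the labels. Cells of every genotype, WT included, carried the plasmid pINV1-H3.2-FLAG, so no group lacks the tagged H3. They were grown without leucine in 8% glucose, blocked with 15 mM hydroxyurea over 4 h so that they gathered in S phase, and then given 4% sucrose with 15 mM hydroxyurea for 2 h to turn on the tagged histone. DNA recovered on anti-FLAG gel was labelled with Cy5 and whole-cell extract DNA with Cy3. Since no genotype has a second array, differences between genotypes could be neither tested nor checked on replicates, and each SD below is the spread between probes.

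Nucleosomes carry H3 and H4 as a tetramer flanked by H2A and H2B, and most of this supply is made in S phase from genes that are read out in divergent pairs. Fission yeast has several H3 and H4 gene pairs that encode nearly the same proteins, and in this yeast the GATA-type factor Ams2 is known to activate them through a repeated AACCCT element. H2A.Z differs in that it is placed by a dedicated exchange complex, mainly in the first nucleosomes of genes. H3 that enters chromatin when a tagged copy is switched on marks places where histones were deposited or exchanged after the switch.

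In the files' coordinates, hht2 lies on the plus strand of chromosome II at 1366019 to 1366718, with its coding sequence of 411 bases at 1366058 to 1366468. hhf2 lies on the minus strand at 1365089 to 1365884, with 312 coding bases at 1365412 to 1365723. pht1 lies on the minus strand at 1503103 to 1504344, with 420 coding bases at 1503542 to 1503961. Each coding sequence is 1 block without introns. These positions are the RefSeq annotation of assembly ASM294v3 moved by 900 bp, and in windows around hht2 and pht1 the shift of 900 bp gave the best match between extract signal and base composition (r = 0.483 over 1997 tiles and 0.526 over 1995 tiles, across tiles that share the array, against 0.0965 and 0.006 with no shift). RefSeq lists h3.2 as another name of hht2, the name that the plasmid carries.

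The start codons of hhf2 and hht2 face each other across a shared promoter. The 134 bases between the 2 transcripts are shown because both genes are read out from them. They lie at chrII:1364985-1365118 of ASM294v3 (RefSeq), read on the plus strand, with capitals on the element AACCCT, which here stands on the minus strand as a pair in tandem.
hhf2-hht2 intergenic: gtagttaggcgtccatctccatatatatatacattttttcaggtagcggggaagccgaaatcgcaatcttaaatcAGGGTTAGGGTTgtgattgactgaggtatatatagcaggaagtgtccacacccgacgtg
AACCCT was searched on both strands, and AACCCTAACCCT as its tandem form, which overlaps it. Of 5112 windows of the same length upstream of protein-coding genes, 5.05% held AACCCT and 0.352% held the tandem. Among the histone genes, 9 of 9 genes for H2A, H2B, H3 and H4 held AACCCT in this window, and 0 of 2 genes for the variants H2A.Z (pht1) and CENP-A (cnp1). hhf2 and hht2 share the window printed above, so these genes are not all separate matches. hhf3 held 1 copy and no tandem. A match is a description of these letters only.

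The H3 coding sequence is repeated elsewhere in the genome, so its tiles could also bind DNA of hht1 on chromosome I and hht3 on chromosome II. Over the 411 coding bases hht2 shares 88.8% with hht1 and 88.3% with hht3. The stretches below are those of the first tile lying wholly in the hht2 coding sequence (coding bases 4 to 63) and of the tile that had no place elsewhere with 50 or more of its 60 bases (coding bases 304 to 363). Capitals mark, in hht2, bases that differ in hht1 or hht3, and, in hht1 and hht3, bases that differ from hht2. The hht2 stretches lie at chrII:1365161-1365220 and chrII:1365461-1365520 on the plus strand of ASM294v3 (RefSeq).
hht2 bases 4 to 63: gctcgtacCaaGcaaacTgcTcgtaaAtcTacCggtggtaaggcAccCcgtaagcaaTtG
hht1 bases 4 to 63: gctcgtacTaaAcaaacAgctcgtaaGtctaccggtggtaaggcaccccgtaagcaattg
hht3 bases 4 to 63: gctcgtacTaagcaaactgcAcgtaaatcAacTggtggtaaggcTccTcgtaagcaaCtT
hht2 bases 304 to 363: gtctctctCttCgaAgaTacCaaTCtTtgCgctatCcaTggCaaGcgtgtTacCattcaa
hht1 bases 304 to 363: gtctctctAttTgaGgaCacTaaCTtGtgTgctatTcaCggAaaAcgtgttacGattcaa
hht3 bases 304 to 363: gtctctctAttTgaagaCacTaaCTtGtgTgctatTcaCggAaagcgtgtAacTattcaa
In the first stretch 56 of 60 bases match hht1 and 52 match hht3. In the second, 46 match hht1 and 47 match hht3.

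The quality of the spots was alike in all arrays. In each array 43811 or more of the 43993 probes exceeded background clearly in Cy5 and Cy3, and 0 spots were saturated. Between neighbouring tiles the log2 ratio had a spread of 0.088 to 0.103 per array. All 4 arrays shared 1 slide barcode and 1 scan date. All values below are log2 of the processed Cy5 over Cy3 signal, or of 1 channel alone, with the median of the array at 0.

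hht2 had the highest gene mean of 888 measured protein-coding genes in clr3D and in WT, and ranked 2 in IRD2 and 3 in IRD2 clr3D. Its mean ratio over 14 probes was 1.05 ± 0.52 in clr3D, 0.92 ± 0.54 in IRD2, 0.90 ± 0.60 in IRD2 clr3D and 1.50 ± 0.69 in WT (SD between probes). The wide SD comes from 2 kinds of tile inside the gene. The 7 tiles wholly in the coding sequence had medians of 1.47 in clr3D, 1.44 in IRD2, 1.39 in IRD2 clr3D and 2.11 in WT. The 3 tiles wholly in the 3′ untranslated region (UTR) had medians of 0.53 in clr3D, 0.33 in IRD2, 0.37 in IRD2 clr3D and 0.78 in WT. WT was the highest array in both, and the 3 mutants lay close together on the coding tiles.

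The change between these levels took place at the coding edges and within the length of 1 tile. The tile with its last 13 bases in the hht2 coding sequence had a ratio of 0.44 in clr3D, 0.35 in IRD2, 0.49 in IRD2 clr3D and 0.87 in WT. The next tile, wholly coding, had 1.59 in clr3D, 1.44 in IRD2, 1.33 in IRD2 clr3D and 2.11 in WT. At the other end, the tile with 58 coding bases had 1.26 in clr3D, 1.20 in IRD2, 1.18 in IRD2 clr3D and 1.81 in WT, and the tile after it, with 8 coding bases, had 0.62 in clr3D, 0.50 in IRD2, 0.52 in IRD2 clr3D and 0.84 in WT. The change was thus complete over neighbouring tiles at both ends. In every array the lowest of these 8 coding tiles lay above the highest of the other 45 tiles at the locus, by 0.64 in clr3D, 0.66 in IRD2, 0.64 in IRD2 clr3D and 0.76 in WT.

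**Figure D1:**
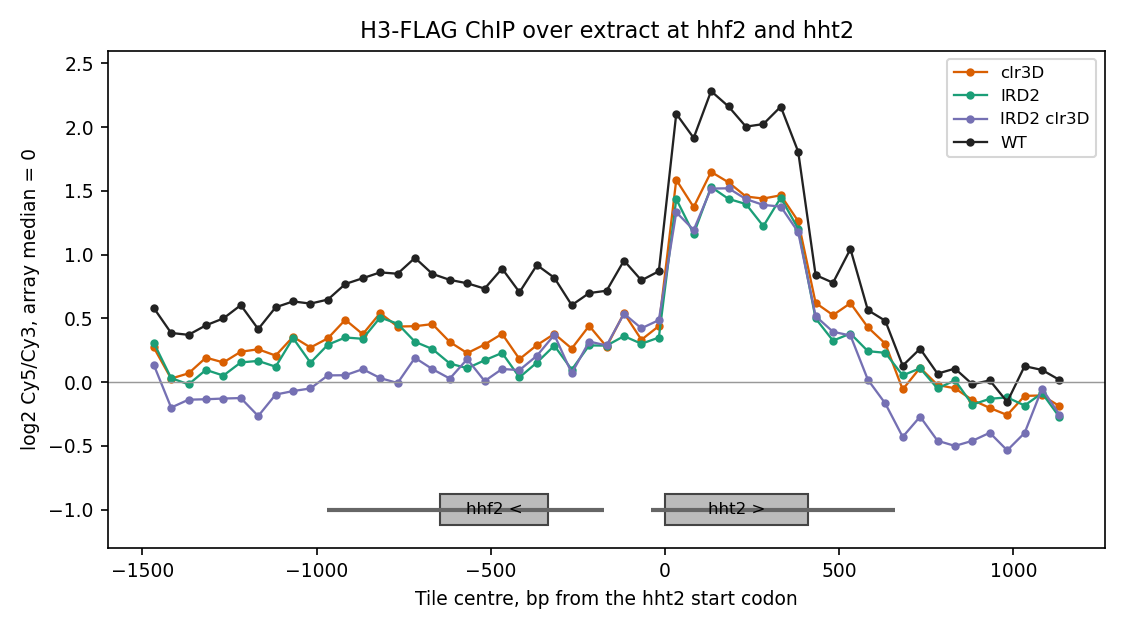
log2 Cy5 over Cy3 of each tile (points, array median at 0) against the distance of the tile centre from the hht2 start codon, 1 line per array; the grey bar is each transcript and the box its coding sequence. The 8 tiles over the hht2 coding sequence stand above all other tiles at the locus in every array, and WT is the highest array across most of the locus.

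hht1 and hht3 differ from hht2 most in the tile over coding bases 304 to 363 printed above. Its ratio was 1.47 in clr3D, 1.45 in IRD2, 1.38 in IRD2 clr3D and 2.16 in WT. The tile printed first, which has close matches in the other copies, had 1.59 in clr3D, 1.44 in IRD2, 1.33 in IRD2 clr3D and 2.11 in WT. The tile least like the other copies differed from the first tile by -0.12 in clr3D, 0.011 in IRD2, 0.045 in IRD2 clr3D and 0.056 in WT. It ranked 4 in clr3D, 2 in IRD2, 5 in IRD2 clr3D and 3 in WT of the 7 coding tiles, so it was not the lowest in any array.

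Both channels were higher inside the coding edges, Cy5 more than Cy3. The median Cy5 level of the 7 coding tiles was 3.42 in clr3D, 3.40 in IRD2, 3.40 in IRD2 clr3D and 3.53 in WT. The median Cy3 level, which reads extract DNA without a precipitation, was 1.92 in clr3D, 1.99 in IRD2, 1.96 in IRD2 clr3D and 1.44 in WT. Tiles wholly outside the coding sequence and within 500 bp of hht2 had median Cy3 levels of -1.02 in clr3D, -0.95 in IRD2, -0.92 in IRD2 clr3D and -1.10 in WT. Some of this difference goes with base composition, since coding tiles are richer in G and C. Unlike the ratio, Cy3 did not set the coding tiles apart from the whole locus. Of the 45 other tiles, 5 in each mutant and 6 in WT reached the lowest of the 8 coding tiles in Cy3.

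As a step, coding minus outside tiles, hht2 had 1.20 in clr3D, 1.30 in IRD2, 1.38 in IRD2 clr3D and 1.52 in WT on the ratio scale. It was the 1 gene of 863 with a ratio step of at least 1 in each array, where such genes made up 0.116% of all in every array. In Cy5 its step was 4.10 in clr3D, 4.11 in IRD2, 4.15 in IRD2 clr3D and 4.01 in WT, which ranked 1 or 2 of 863 genes. Its Cy3 step was 2.95 in clr3D, 2.95 in IRD2, 2.88 in IRD2 clr3D and 2.54 in WT, which ranked 2 in each mutant and 3 in WT. Steps of at least 1 were common in single channels, at 25% of genes in clr3D, 20% in IRD2, 17.6% in IRD2 clr3D and 25.8% in WT for Cy5. For Cy3 they were 18.8% in clr3D, 17.3% in IRD2, 8.57% in IRD2 clr3D and 19.8% in WT. After removal of a straight line on the GC content of the tiles, the Cy3 step at hht2 was 2.16 in clr3D, 2.27 in IRD2, 2.44 in IRD2 clr3D and 1.88 in WT, and the ratio step 1.19 in clr3D, 1.24 in IRD2, 1.29 in IRD2 clr3D and 1.30 in WT. The part of plasmid DNA in the extract step was not tested.

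**Figure D2:**
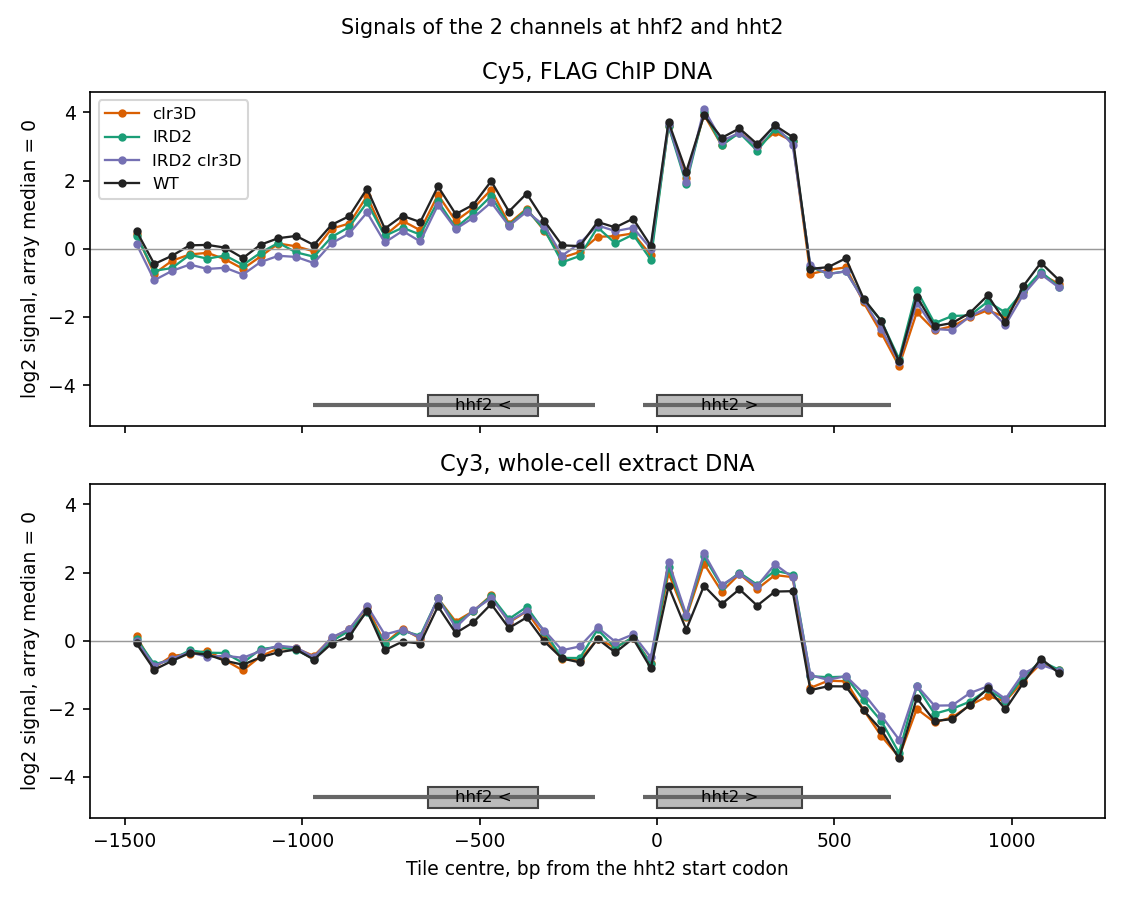
log2 Cy5 (upper panel, ChIP DNA) and Cy3 (lower panel, extract DNA) of each tile, array median at 0, against the distance from the hht2 start codon, 1 line per array. Both channels step up over the hht2 coding box and down after it; the arrays nearly coincide in Cy5 there, while WT is the lowest array in Cy3.

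On the other side of the promoter, hhf2 showed no such step in the ratio. Its coding sequence also has copies elsewhere (91.3% identity to hhf1 and to hhf3). The median ratio of its 5 wholly coding tiles was 0.29 in clr3D, 0.15 in IRD2, 0.10 in IRD2 clr3D and 0.78 in WT. The ratio step was -0.08 in clr3D, -0.16 in IRD2, 0.02 in IRD2 clr3D and 0.03 in WT, with ranks between 494 and 712 of 863 genes. In single channels hhf2 did step up: its Cy5 step was 0.81 in clr3D, 0.78 in IRD2, 0.75 in IRD2 clr3D and 0.74 in WT. Its Cy3 step was as large, at 1.00 in clr3D, 1.00 in IRD2, 0.89 in IRD2 clr3D and 0.81 in WT, with ranks between 113 and 264. The 5 tiles between the start codons, which cover the promoter printed above, had medians of 0.33 in clr3D, 0.29 in IRD2, 0.32 in IRD2 clr3D and 0.72 in WT. Along hhf2 and its promoter the ratio thus stayed below that of the hht2 coding tiles in every array. It was not even in IRD2 clr3D. There the hhf2 3′ UTR had a median of 0.05, and the tiles between the start codons ran from 0.07 to 0.54.

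Outside hht2, tiles as high were found in a pair of other places. In WT, 34 tiles of the whole array had a ratio of at least 1.8, a threshold chosen after the values were seen. Of these, 8 lay in the hht2 coding sequence, 16 in the short tiled piece at inv1, 9 in the short tiled piece at nmt1 and 1 elsewhere. inv1 on chromosome III encodes invertase, which splits sucrose, and is the gene that the plasmid is named after beside H3.2; nmt1 encodes a thiamine synthesis enzyme that is widely used as a source of promoters and terminators in fission yeast vectors.

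With the tiles placed by the 900 bp shift, the high tiles at inv1 ended near the start of the coding sequence. The 15 tiles upstream of the inv1 start codon had median ratios of 1.78 in clr3D, 1.65 in IRD2, 1.51 in IRD2 clr3D and 2.19 in WT. The 33 tiles inside the inv1 coding sequence had 0.20 in clr3D, -0.01 in IRD2, -0.09 in IRD2 clr3D and 0.55 in WT. At nmt1, placed likewise, the high tiles began after the coding sequence ended, a class added after the values were seen. The 8 tiles downstream of the nmt1 stop codon had 1.57 in clr3D, 1.62 in IRD2, 1.48 in IRD2 clr3D and 2.12 in WT, while the 20 tiles of its coding sequence had 0.27 in clr3D, -0.09 in IRD2, -0.04 in IRD2 clr3D and 1.01 in WT.

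The 3 stretches had ratios close to each other in WT, although they lie in separate places. The WT threshold and the nmt1 class were set after the values were seen, so this likeness in WT is no independent observation. In the mutants the medians were less alike. They ran from 1.47 at hht2 to 1.78 upstream of inv1 in clr3D, from 1.44 to 1.65 in IRD2 and from 1.39 to 1.51 in IRD2 clr3D. In WT the hht2 coding tiles had medians of 2.11 in ratio, 3.53 in Cy5 and 1.44 in Cy3. Those upstream of inv1 had 2.19, 3.27 and 0.99 on the same scales, and those downstream of nmt1 had 2.12, 3.30 and 1.16. Tiles with so high a ratio were not confined to the hht2 coding sequence, but at hht2 itself they were confined to its coding tiles in all 4 arrays. Its 3′ UTR tiles were raised less, with medians of 0.53 in clr3D, 0.33 in IRD2, 0.37 in IRD2 clr3D and 0.78 in WT. No map or sequence of the plasmid was used, so the part of plasmid DNA in these stretches was not tested. The positions at inv1 and nmt1 rest on the same 900 bp shift, for which base composition gave no support in these pieces of 59 and 39 tiles (best shifts of -280 and 1780 bp). Where the high tiles fall was itself taken into account in accepting that shift on chromosome III, so their match to the coding edges there is no independent observation.

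**Figure D3:**
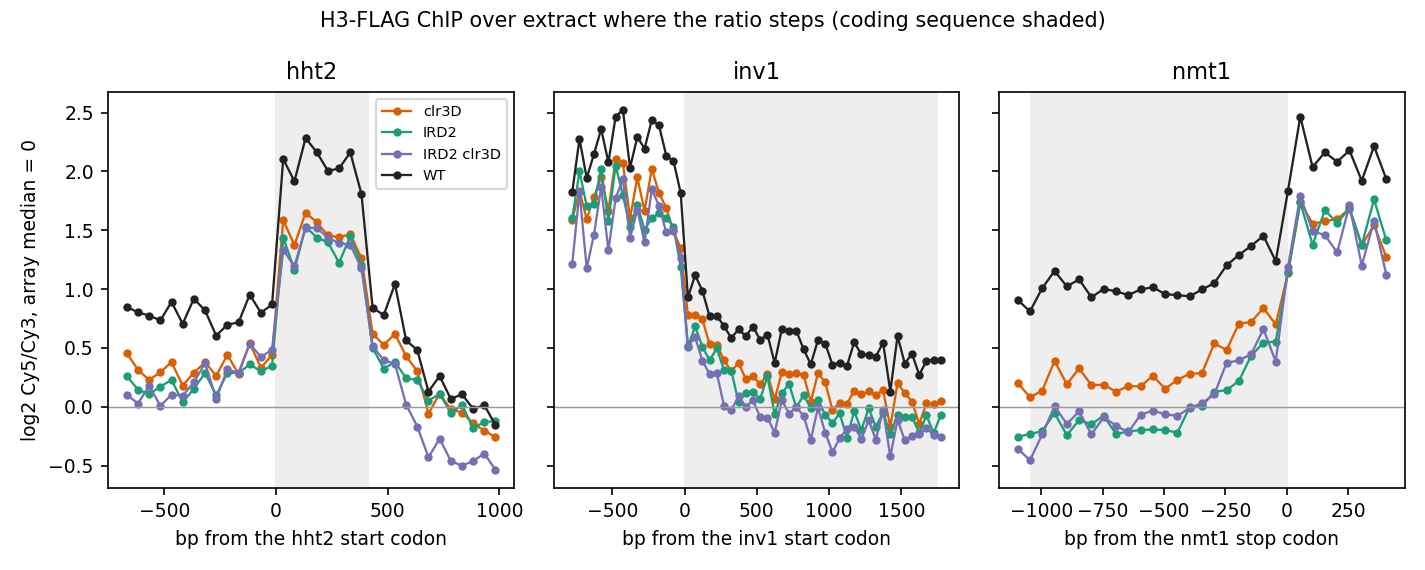
log2 Cy5 over Cy3 of each tile, array median at 0, by distance from the hht2 start codon (left), the inv1 start codon (middle) and the nmt1 stop codon (right), 1 line per array, with coding sequences shaded. The high tiles fill the coding sequence at hht2, lie before it at inv1 and after it at nmt1.

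The mutants were next set against WT; these 3 comparisons share the WT array, so their values are given side by side only. The mean ratio of hht2 differed from WT by -0.45 ± 0.18 in clr3D, -0.58 ± 0.18 in IRD2 and -0.61 ± 0.15 in IRD2 clr3D (SD between 14 probes). All 14 probes were below WT in each mutant. Over all 888 genes the median difference was -0.0058 in clr3D, 0.0028 in IRD2 and -0.0067 in IRD2 clr3D.

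hhf2 was lower than WT by a like amount. Its mean over 16 probes was 0.37 ± 0.10 in clr3D, 0.25 ± 0.13 in IRD2, 0.12 ± 0.11 in IRD2 clr3D and 0.79 ± 0.10 in WT. The differences from WT were -0.43 ± 0.11 in clr3D, -0.54 ± 0.13 in IRD2 and -0.68 ± 0.14 in IRD2 clr3D, with all 16 probes below WT in each. The rank of hhf2 among 888 genes was 116 in clr3D, 143 in IRD2, 310 in IRD2 clr3D and 13 in WT.

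pht1 stood at the other end of the scale, with a low mean in every array. Its mean over 24 probes was -0.23 ± 0.22 in clr3D, -0.46 ± 0.19 in IRD2, -0.43 ± 0.17 in IRD2 clr3D and -0.48 ± 0.19 in WT (SD). It ranked 781 in clr3D, 880 in IRD2, 869 in IRD2 clr3D and 880 in WT of 888. Its difference from WT was 0.24 ± 0.09 in clr3D, where 24 of 24 probes were above WT. In IRD2 it was 0.02 ± 0.19 with 12 of 24 probes above WT, and in IRD2 clr3D 0.04 ± 0.11 with 15 of 24.

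Read against the array, a difference of at least 0.3 log2 in the gene mean was used as a size threshold. In clr3D minus WT 1.91% of genes were lower by that much, 6.19% in IRD2 minus WT and 6.64% in IRD2 clr3D minus WT. hht2 and hhf2 were past it in each of these comparisons, 2 of the 3 genes, and pht1 in none. Genes higher by that much made up 2.25% in clr3D minus WT, 0.788% in IRD2 minus WT and 3.27% in IRD2 clr3D minus WT, with 0 of the 3 genes among them. Counted from the lowest of 888 differences, hht2 ranked 4 in clr3D, 9 in IRD2 and 9 in IRD2 clr3D.

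The 2 changes were also compared within the double mutant. In IRD2 clr3D minus IRD2, hht2 differed by -0.02 ± 0.15, hhf2 by -0.13 ± 0.18 and pht1 by 0.03 ± 0.22. In IRD2 clr3D minus clr3D hht2 differed by -0.16 ± 0.15, hhf2 by -0.25 ± 0.15 and pht1 by -0.20 ± 0.15. The size threshold was passed downward by 0.563% of genes and upward by 1.58% in IRD2 clr3D minus IRD2, and downward by 2.93% and upward by 0.225% in IRD2 clr3D minus clr3D. In both comparisons 0 of the 3 genes passed it in either direction.

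Split by channel, the lower hht2 ratio stood mainly beside more extract signal. Over the 7 coding tiles the mean difference from WT in Cy3 was 0.45 ± 0.10 in clr3D, 0.58 ± 0.15 in IRD2 and 0.64 ± 0.19 in IRD2 clr3D, and all 7 tiles were above WT in each. The Cy5 mean of these tiles differed less, by -0.13 ± 0.08 in clr3D, -0.15 ± 0.14 in IRD2 and -0.06 ± 0.14 in IRD2 clr3D. The other stretches that were as high did likewise: upstream of inv1 the Cy3 difference was 0.31 ± 0.11 in clr3D, 0.45 ± 0.18 in IRD2 and 0.67 ± 0.25 in IRD2 clr3D, and the Cy5 difference -0.11 ± 0.12 in clr3D, -0.07 ± 0.20 in IRD2 and 0.03 ± 0.21 in IRD2 clr3D. Whether the mutants held more plasmid DNA than WT was not tested.

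Tiles that do not touch the hht2 coding sequence were also read apart, a choice made after the values were seen. The 4 such tiles of hht2 differed from WT by -0.25 ± 0.13 in clr3D, -0.42 ± 0.18 in IRD2 and -0.56 ± 0.13 in IRD2 clr3D, with all 4 below WT in each. The clr3D value no longer reaches 0.3. In Cy5 these 4 tiles differed from WT by -0.20 in clr3D, -0.15 in IRD2 and -0.22 in IRD2 clr3D. In Cy3 they differed by 0.04 in clr3D, 0.28 in IRD2 and 0.35 in IRD2 clr3D. More extract signal thus stood beside the lower ratio here too, except in clr3D. Over the 43 such tiles of the whole hhf2 and hht2 locus, the median ratio difference was -0.32 in clr3D with 43 tiles below WT, -0.41 in IRD2 with 42 below, and -0.59 in IRD2 clr3D with 43 below. Their Cy5 medians were -0.23 in clr3D, -0.26 in IRD2 and -0.38 in IRD2 clr3D, and their Cy3 medians 0.10, 0.17 and 0.20.

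At hhf2 the channels differed from WT in opposite directions, Cy5 by more than Cy3. Its gene mean in Cy5 differed from WT by -0.23 in clr3D, -0.36 in IRD2 and -0.44 in IRD2 clr3D. In Cy3 it differed by 0.19 in clr3D, 0.19 in IRD2 and 0.25 in IRD2 clr3D. The lower hhf2 ratio was therefore seen in the precipitated DNA as well as in the extract.

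**Figure D4:**
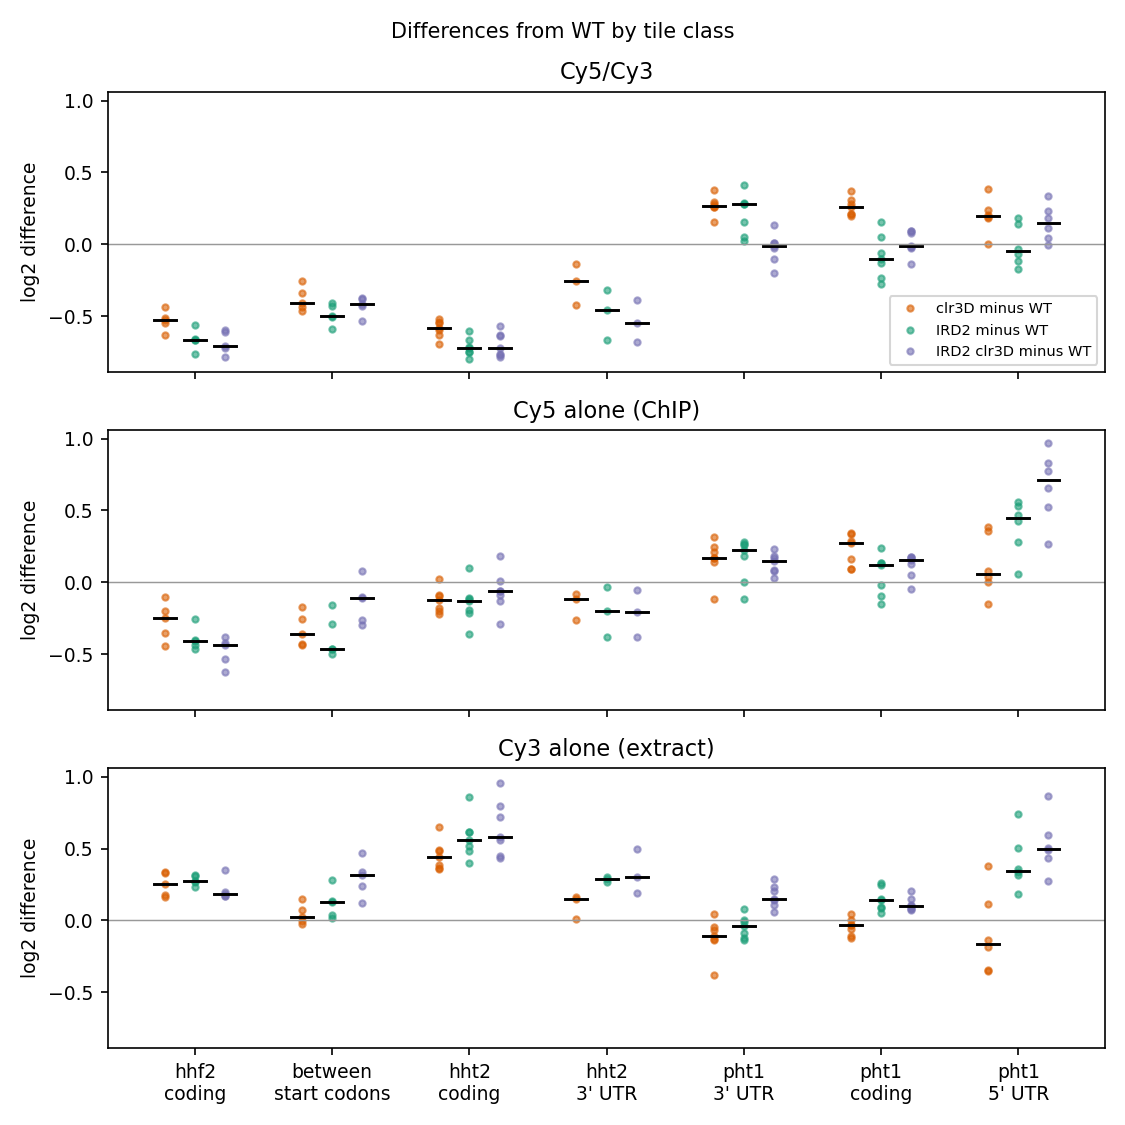
Mutant minus WT difference in log2 of each tile (points; black bars are medians) by tile class, for the ratio (top), Cy5 alone (middle) and Cy3 alone (bottom), in clr3D, IRD2 and IRD2 clr3D from left to right in each class. The ratio is below WT in all plotted tiles of the hhf2 coding sequence, the shared promoter and hht2, while over the hht2 coding sequence Cy5 lies near 0 and Cy3 above it.

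Downstream of hht2 the genotypes separated in another way. In the 8 tiles of the 3′ flank, which run into the convergent gene sfi1, the median ratio was -0.11 in clr3D, -0.10 in IRD2, -0.43 in IRD2 clr3D and 0.08 in WT. The differences from WT had medians of -0.15 in clr3D, -0.15 in IRD2 and -0.48 in IRD2 clr3D. Beyond the 3′ end of hhf2, 9 tiles differed from WT by -0.34 in clr3D, -0.39 in IRD2 and -0.67 in IRD2 clr3D. On both sides of the locus IRD2 clr3D was thus the lowest array in the ratio and stood apart from the other mutants. The channels differed by side. In the hht2 3′ flank, IRD2 clr3D minus clr3D had a median of 0.009 in Cy5 and 0.32 in Cy3. Of its 8 tiles, 4 were above 0 in Cy5. Against IRD2 the medians were -0.17 in Cy5 and 0.10 in Cy3. Beyond hhf2 the Cy5 medians were -0.30 against clr3D and -0.28 against IRD2, with all 9 tiles below 0 in each. The hht2 3′ flank tiles were dim, with median Cy3 levels of -1.84 in clr3D, -1.60 in IRD2, -1.44 in IRD2 clr3D and -1.78 in WT. On the hht2 coding tiles the median ratio of IRD2 clr3D was also the lowest but close to the other mutants, at 1.39 beside 1.44 in IRD2 and 1.47 in clr3D.

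pht1 had a shape of its own along the gene. The ratio was lowest in its 5′ flank, at medians of -0.92 in clr3D, -1.02 in IRD2, -0.83 in IRD2 clr3D and -0.83 in WT over 9 tiles. Over the 7 coding tiles it was -0.10 in clr3D, -0.36 in IRD2, -0.29 in IRD2 clr3D and -0.30 in WT. In the 7 kept tiles of the 3′ UTR it was -0.32 in clr3D, -0.32 in IRD2, -0.52 in IRD2 clr3D and -0.57 in WT, below the coding tiles in each array but IRD2. The coding step of pht1 was 0.27 in clr3D, 0.11 in IRD2, 0.26 in IRD2 clr3D and 0.31 in WT, small beside that of hht2.

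The clr3D difference at pht1 ran the length of the gene and ended at its 5′ flank. Its median was 0.27 in the 3′ UTR, 0.26 in the coding sequence and 0.20 in the 5′ UTR, with all tiles above WT in each class. In the 9 tiles of the 5′ flank it was -0.06, with 9 of 9 below WT. The same sign carried on past the 3′ end into cdc2, the gene of the main cell cycle kinase, where 7 of 8 tiles were above WT with a median of 0.22.

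In IRD2 the sign of the ratio difference at pht1 changed along the gene, so that its mean near 0 does not stand for even values. Divided at 400 bp past the start codon, a place chosen after the values were seen, the 18 tiles on the stop codon side were all above WT, with a median of 0.28. Of the 26 tiles on the other side, which includes the upstream flank, 22 were below WT, with a median of -0.13. IRD2 clr3D minus WT had medians of 0.0048 and 0.066 on these sides, with 10 of 18 and 16 of 26 tiles above WT. The lower IRD2 ratio towards the 5′ side was not seen in Cy5 alone. There IRD2 minus WT had Cy5 medians of 0.12 in the coding sequence, 0.45 in the 5′ UTR and 0.09 in the 5′ flank. The Cy3 medians were 0.14, 0.34 and 0.33 in the same order, with all tiles above WT. In the 3′ UTR the medians were 0.22 in Cy5 and -0.04 in Cy3. pht1 tiles were dim upstream of the gene, with a median Cy3 level of -2.24 in clr3D, -1.74 in IRD2, -1.74 in IRD2 clr3D and -1.85 in WT in the 5′ flank.

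**Figure D5:**
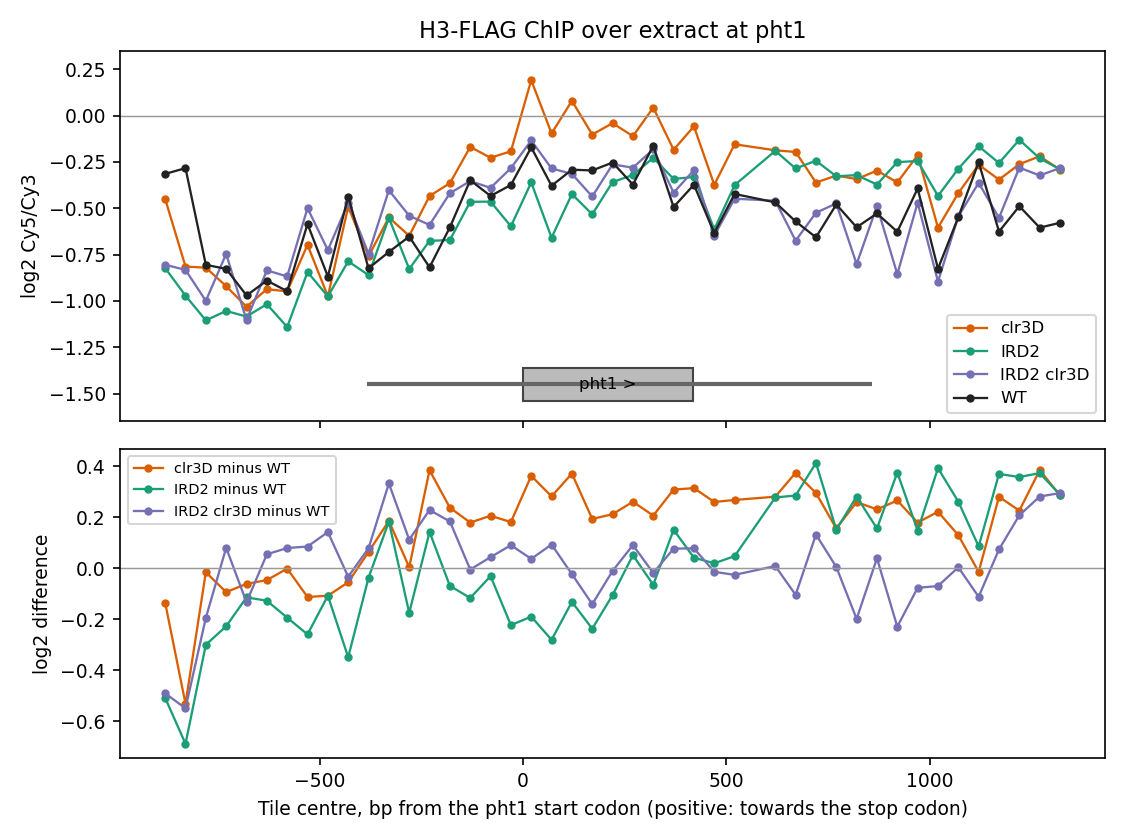
Upper panel, log2 Cy5 over Cy3 of each tile at pht1, array median at 0, by distance from its start codon, 1 line per array; lower panel, each mutant minus WT. clr3D lies above the other arrays over most of the coding sequence, and the IRD2 minus WT line lies above 0 towards the 3′ end and below 0 towards the 5′ end.

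Few other histone genes or genes of histone supply were on the array. Of a list of 11 histone genes only these 3 were measured, with differences from WT as given above. Of 42 genes for histone supply, chaperones, exchange and S-phase control 7 were measured, and 0 of 7 passed 0.3 log2 in any of the 5 comparisons. Of all 888 genes, 0.225% to 6.64% passed it per comparison and direction, so this count does not set the 7 genes apart. Their median difference was 0.03 in clr3D, 0.04 in IRD2 and 0.06 in IRD2 clr3D. cdc18, which licenses replication origins, had the lowest, at -0.18 in clr3D, -0.25 in IRD2 and -0.18 in IRD2 clr3D. slm9, a subunit of the HIRA chaperone for H3 and H4, differed by 0.03 in clr3D, 0.06 in IRD2 and 0.18 in IRD2 clr3D. pcf1, the large subunit of the CAF-1 chaperone, differed by 0.03 in clr3D, 0.07 in IRD2 and 0.06 in IRD2 clr3D. vps71, a subunit of the complex that places H2A.Z, differed by 0.10 in clr3D, 0.19 in IRD2 and 0.03 in IRD2 clr3D. nap2 (a histone chaperone), rvb2 (an ATPase of remodelling complexes) and cdc10 (a factor for S-phase genes) lay between -0.11 and 0.10.

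The genes with the most similar differences from WT were found by the root mean square distance over the 3 mutants, a description only. Closest to hht2 were hhf2 (0.05), inv1 (0.08), sua1 (0.09), rpl26 (0.12) and mug124 (0.12). Closest to hhf2 were hht2 (0.05), inv1 (0.06), sua1 (0.11), rpl26 (0.12) and fmo1 (0.13). sua1, which encodes sulfate adenylyltransferase, differed from WT by -0.52 in clr3D, -0.48 in IRD2 and -0.53 in IRD2 clr3D. Closest to pht1 were SPBC3E7.17 (0.03), sus1 (0.04), SPBC12C2.01c (0.05), rct1 (0.05) and tif1102 (0.06).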

How the data were processed

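Per the file headers, scans were read with Agilent Feature Extraction 12.0.3.1; the deposited intensity of each spot is given raw and processed, processed meaning background-subtracted and dye-normalized. The deposited series matrix holds the authors' ratio of processed Cy5 over Cy3, which equals that of the scanner files and is not centred. The genome build is not given in the sources used here.

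log2 of the processed ratio, and of each channel alone, was centred on the median of each array. Control spots (1227) and outlier spots (9 to 21 per array) were left out. Gene values are means over probes whose centre lies in the gene, with at least 3 probes. Matches elsewhere were sought with BLAST 2.17.0. Alternatives used limma 3.58.1 in R 4.3.3 (normexp with an offset of 50 on spot and background medians, as the files give no mean signal, and loess). The gene summary and step code was tested on simulated data. With 1 array per genotype there is no test, and the number of arrays limits the precision. Genes named are the 3 members, neighbours in their flanks, inv1, all measured genes of 2 lists and the 5 most alike to each member; nmt1 was added after its values were seen. Members and lists were chosen with earlier results of these data known.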

Additional observations from a re-analysis of the deposited data

Results flagged for a closer look

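At pht1 the IRD2 difference had opposite signs with and without clr3 as gene means. The gene mean differed by 0.016 in IRD2 minus WT and by -0.20 in IRD2 clr3D minus clr3D. This difference was not tested, since each genotype has 1 array, and the 24 probes of the first comparison were split evenly, 12 above and 12 below 0. The first value lies near 0 and its sign depends on the summary: it was -0.088 with coding tiles only, -0.073 after scaling to the spread of the WT array and -0.0054 as the median of the tile differences. The second was -0.25 with coding tiles only and -0.23 after scaling, so under these settings both have the same sign. Under others the signs stayed opposite. The first was 0.094 with normexp, 0.032 with loess and 0.052 with medians over probes. The second was -0.092, -0.089 and -0.23 in the same order.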

How the results depend on the processing

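Of 451 values recomputed under other settings, 367 moved by less than the spread between probes (or, for counts, within 1.5 times). This count includes values that could not move, because the setting left the probes of that gene unchanged. All 27 values with probes well above background only were of this kind. For hht2 levels the spread was itself wide, at 0.52 in clr3D to 0.69 in WT. With Cy3 alone, which reads extract DNA and not the ratio, 7 differences from WT changed sign: hht2 at 0.28, 0.44 and 0.50 and hhf2 at 0.19, 0.19 and 0.25 in clr3D, IRD2 and IRD2 clr3D, and pht1 at -0.077 in clr3D; pht1 was 0.27 in IRD2 clr3D, and IRD2 clr3D minus clr3D was 0.22, 0.059 and 0.34 for hht2, hhf2 and pht1, with hhf2 at 0.058 against IRD2. With Cy5 alone hht2 was -0.16, -0.15 and -0.11 and hhf2 -0.23, -0.36 and -0.44 in clr3D, IRD2 and IRD2 clr3D, pht1 0.30 in IRD2 clr3D, and IRD2 clr3D minus clr3D 0.051 for hht2 and 0.13 for pht1. With normexp hhf2 was -0.55, -0.69 and -0.95 from WT and -0.40 from clr3D, and pht1 0.13 in clr3D. With loess hht2 was -0.65 in clr3D. Without tiles touching the hht2 coding sequence, a setting added after seeing the data, hht2 was -0.25 in clr3D and -0.32 in IRD2 clr3D minus clr3D. After GC correction the steps were 1.30 in ratio for WT, 3.39 and 3.40 in Cy5 for clr3D and WT, and 2.16, 2.27 and 1.88 in Cy3 for clr3D, IRD2 and WT; as a mean over tiles the clr3D ratio step was 1.33.

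Counts of genes also moved. At 0.5 log2, lower genes numbered 3, 13 and 17 against WT in clr3D, IRD2 and IRD2 clr3D, 0 against IRD2 and 8 against clr3D, and higher genes 8, 0, 4, 4 and 0 in the same order. With Cy5 alone lower genes were 7 and 30 in clr3D and IRD2, and higher genes 7, 1 and 9 in clr3D, IRD2 and IRD2 clr3D minus clr3D. With loess higher genes were 4 in IRD2 and 17 in IRD2 clr3D, and with at least 10 probes 1 in IRD2 clr3D minus clr3D. The cause of these moves was not tested. No paired analysis was possible because each genotype has 1 array. Limits are the single array per genotype, the inferred coordinates, and plasmid DNA that was not mapped.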
